A study of Mus musculus with 12 samples.

Results

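The somatic cells of the embryonic mouse ovary were compared with those of the testis in 6 small RNA libraries, 1 female and 1 male at each of embryonic days 11.5, 12.5 and 13.5 (E11.5, E12.5 and E13.5). These are the gonadal somatic cell (SC) libraries among 12 in the study, the other 6 being made from primordial germ cells (PGCs) of the same stages and sexes. All 616 listed microRNAs were read in every library, and female and male were paired by stage, so that each sex has 3 libraries. All embryos were of the CD1 strain and carried no engineered allele or treatment named in the labels. Per the labels' protocols, XX and XY embryos of the earlier stages were told apart by PCR for Sry and Jarid1d, the mesonephros was taken off, and pools of about 80 gonads were dissociated with trypsin. Germ cells were then held on a magnetic column by beads against CD15, a surface carbohydrate of germ cells, and the somatic fraction was given as more than 90% pure. RNA under 100 bp was sequenced on a MiSeq. A library therefore stands for 1 pool of mixed somatic cell types, which at these stages include supporting cells, steroidogenic and interstitial cells, endothelium and blood.

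The gonad starts as the same rudiment in both sexes. In XY embryos Sry turns supporting cells into Sertoli cells, which form testis cords, and in XX embryos the supporting cells become pre-granulosa cells. MicroRNAs are cut as a pair of arms, named 5p and 3p, from a hairpin precursor, and the arm loaded into Argonaute finds its targets through its seed, bases 2 to 8. miR-202 is a gonad-enriched microRNA known from Sertoli and granulosa cells, and miR-140 and miR-455 are best known from cartilage and are made from introns of Wwp2 and Col27a1.

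The microRNAs on which the results turn are shown with the seed in capitals and the rest in lower case, each read 5′ to 3′. Of the 616 names, 526 matched a mature sequence of RefSeq (GRCm38.p6), from which all printed sequences and positions were taken. The first set was higher in the male E13.5 library, and both arms of miR-202 and of miR-455 are given because the arms of a hairpin did not differ alike.
miR-202-5p: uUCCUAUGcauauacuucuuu
miR-202-3p: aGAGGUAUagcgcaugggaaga
miR-140-3p: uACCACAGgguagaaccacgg
miR-455-5p: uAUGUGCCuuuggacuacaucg
miR-455-3p: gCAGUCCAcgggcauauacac
The second set was higher in the female E13.5 library in at least 1 member of each pair. It holds pairs with a common seed whose members differ by 1 base outside it, and both arms of miR-27a.
miR-10a-5p: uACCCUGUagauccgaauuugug
miR-10b-5p: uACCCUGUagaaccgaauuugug
miR-196a-5p: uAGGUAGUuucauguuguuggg
miR-196b-5p: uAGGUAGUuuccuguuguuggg
miR-7a-5p: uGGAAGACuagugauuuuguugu
miR-7b-5p: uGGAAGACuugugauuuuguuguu
miR-27a-5p: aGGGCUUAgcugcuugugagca
miR-27a-3p: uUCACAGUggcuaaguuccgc
Counted from 1 at the 5′ end, miR-10a-5p and miR-10b-5p differ by U12A, miR-196a-5p and miR-196b-5p by A12C, and miR-7a-5p and miR-7b-5p by A10U over the length they share. How reads that could belong to either member of such a pair were assigned is not given in the sources used here, so the split within a pair is uncertain.

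The SC libraries held 611229 (male E11.5) to 1768825 (female E11.5) microRNA reads, and levels are given as reads per 1000000 microRNA reads of the library (RPM). Of the 616 microRNAs, 470 to 543 were detected per library, 408 in all 6 and 13 in none. A value of 0 means fewer than 5 reads, which is 2.83 to 8.18 RPM. miR-202-5p, taken as a check of the tissue, was present in all 6 libraries. The PGC libraries also held it, with 67 (male E11.5) to 1283 (female E13.5) reads, so its presence does not tell somatic from germ cells. The E13.5 male library stood apart from the other 5. Among the 273 microRNAs with a mean of at least 100 RPM, 27 lay at least 2-fold below every other SC library there and 14 at least 2-fold above, and its Pearson correlation with the others was 0.726 to 0.868 on the log2 scale. The E11.5 male library had 17 above and 1 below, both E12.5 libraries had none, and the E12.5 pair correlated at 0.988. Since each stage has 1 library per sex, an E13.5 sex difference cannot be told apart from a peculiarity of this pool or library. Fitted differences without it are given beside the results. Leaving it out also takes its female partner out of the estimate, so these values rest on the E11.5 and E12.5 pairs alone. They cannot single out the male library from the stage.

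The sexes differed little at E12.5 and far more on the days before and after. Differences are given as log2(RPM + 5), female minus male, so that a positive value is higher in the female library. At E11.5, 66 of the 298 microRNAs with at least 100 RPM in either library were at least 2-fold apart (22.1%), 10 higher in the female (3.36%) and 56 in the male (18.8%). At E12.5 the count was 5 of 253 (1.98%), 4 higher in the female (1.58%) and 1 in the male (0.395%). At E13.5 it was 81 of 290 (27.9%), 40 higher in the female (13.8%) and 41 in the male (14.1%). The median absolute log2 difference was 0.57, 0.20 and 0.67 at the 3 stages. Differences of at least 4-fold numbered 13 at E11.5, 1 at E12.5 and 23 at E13.5. These are differences between 2 libraries, with no replicate check. In PGCs, measured the same way, the female and male counts were 13 and 42 of 289 on the first day, 52 and 41 of 280 on the second and 51 and 6 of 285 on the last. The E12.5 PGC libraries were shallow, with 166804 (female) and 184174 (male) reads. There 5 reads are 30.0 and 27.1 RPM, against 3.35 and 3.62 RPM in the SC libraries of that day. The PGC and SC counts of E12.5 are therefore not on equal terms.

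**Figure D1:**
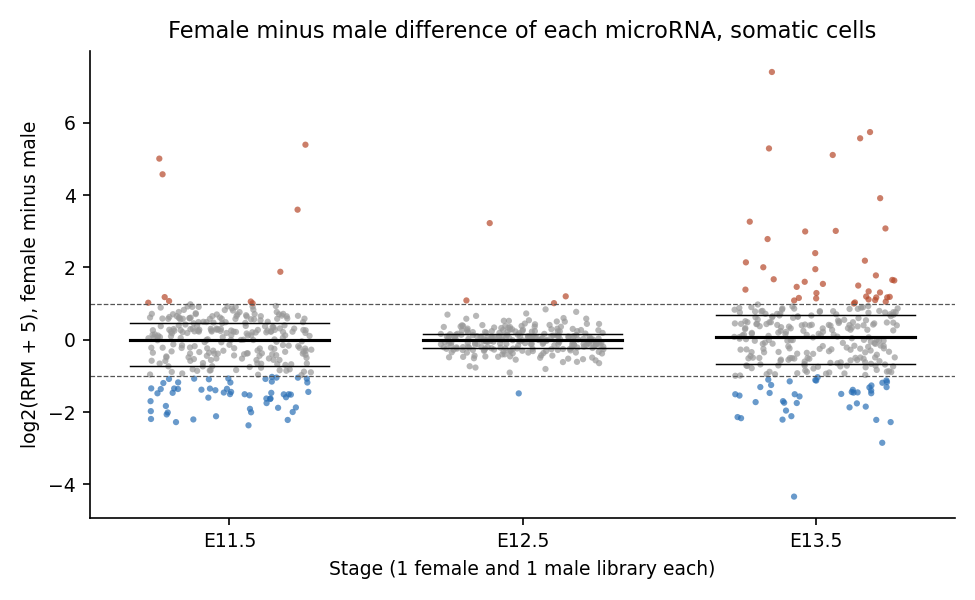
Female minus male difference of each microRNA with at least 100 RPM in either library of the stage; x, stage; y, log2(RPM + 5); thick and thin lines, median and quartiles; dashed lines, 2-fold. The spread at E12.5 (SD 0.39) is narrower than at E11.5 (SD 0.99) and E13.5 (SD 1.30).

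The difference did not grow stage by stage in most microRNAs. Among the 273 with a mean of at least 100 RPM, 13 kept 1 direction and grew at each step, while the E12.5 difference was the smallest of the 3 in 176. The sign was the same at all 3 stages in 72, of which 40 were higher in the female libraries (14.7%) and 32 in the male (11.7%), and it was opposite at E11.5 and E13.5 in 118. Across these 273 microRNAs, which share the libraries and are not replicates, the E11.5 and E13.5 differences had a Pearson correlation of 0.11, those of E12.5 and E13.5 one of 0.18, and those of E11.5 and E12.5 one of -0.14. Taking a level of at least 100 RPM at E13.5 and at least 2-fold there, 7 grew at each step. Those toward the female were miR-7b-5p, miR-196b-5p, miR-196a-5p, miR-1193-3p and miR-409-5p, and those toward the male were miR-202-3p and miR-140-3p. With the linear GC trend described further on taken out, the E11.5 differences of miR-7b-5p (-0.05), miR-196a-5p (-0.25) and miR-140-3p (0.16) had the other sign, so that these 3 no longer kept 1 direction.

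Over all 3 stages no microRNA passed the test of a sex difference. limma on log2(RPM + 5), with the stage as a block and the 462 microRNAs of at least 10 RPM on average, called 0 higher in female and 0 in male libraries at an adjusted p under 0.05 (0%). It gave 21 at an unadjusted p under 0.05 (4.55%), and the lowest adjusted p was 0.673, for miR-206-3p. For a change of the difference per day it again called 0 (0%), with 36 at an unadjusted p under 0.05 (7.79%) and a lowest adjusted p of 0.224, for miR-122-5p. limma's voom on the recovered reads also called 0 and 0, with 21 and 29 at an unadjusted p under 0.05. Only 2 residual degrees of freedom enter the first fit and 1 the second. In the first fit the spread is the change of the female minus male difference between stages, so a difference that grows counts as error. In the second it is the departure of that difference from a straight line. Neither measures the spread between repeated isolations, and a count of 0 does not show that the sexes are alike.

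In 39 of the 462 tested microRNAs the 3 libraries of 1 sex lay wholly above the 3 of the other, 14 with female above male (3.03%) and 25 with male above female (5.41%). Among them were miR-744-5p, made from an intron of Map2k4, on the male side and miR-7a-5p on the female side, described with their groups. With 3 libraries a side some microRNAs separate through the order of the libraries alone, and whether these shares exceed that was not tested. A lack of overlap is therefore given as a description only, here and for single microRNAs below.

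The gonadal list, miR-202, miR-140, miR-455 and miR-124 with both arms, leaned to the male at E13.5. Of its 6 members at 100 RPM or more there, 5 were at least 2-fold higher in the male, where the share over all microRNAs was 14.1%, and 0 in the female. The median difference was -2.12, against 0.14 over all 462 tested microRNAs. At E12.5 the median was -0.77 (1 of 6 at least 2-fold, all tested -0.03), and at E11.5 -0.05 (1 of 5, all tested 0.00). miR-124-3p reached 10.7 RPM in the female E11.5 library and 0 in the rest, and neither arm of miR-124 was tested. In bulk samples fewer cells of a type and less RNA per cell cannot be told apart, here and in every result that follows.

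miR-202 rose with stage in both sexes and by more in the male (hairpin on the minus strand at chr7:139957689-139957760, GRCm38.p6). miR-202-5p, the main arm, stood at 226, 2909 and 8436 RPM in the female libraries from E11.5 to E13.5 and at 136, 5097 and 16334 RPM in the male. From E11.5 to E13.5 this is 37.4-fold in the female and 120-fold in the male. The female was higher at E11.5 and the male on both later days, by 1.94-fold at E13.5. miR-202-3p, whose seed is unlike that of the other arm, stood at 5.09, 97.1 and 130 RPM in the female and 18.0, 280 and 2719 RPM in the male. The male was higher at each stage, with log2 differences of -1.19, -1.48 and -4.34, and by 20.9-fold at E13.5 (220 reads against 2824; exact 95% interval of the log2 ratio -4.59 to -4.19). At E11.5 the value rests on 9 and 11 reads. The fitted difference over the stages was -2.34 ± 0.65 (SE, limma adjusted p = 0.823), and -1.34 without the E13.5 male library, while that of miR-202-5p was -0.35 ± 0.41 (adjusted p = 0.891) and -0.05.

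The share of the 3p arm within miR-202 also separated the E13.5 libraries. It was 2.21%, 3.23% and 1.52% in the female from E11.5 to E13.5, and 11.7%, 5.21% and 14.3% in the male. The exact Clopper-Pearson 95% intervals were 1.01 to 4.15% and 5.99 to 19.97% at E11.5, 2.73 to 3.79% and 4.72 to 5.74% at E12.5, and 1.32 to 1.73% and 13.8 to 14.8% at E13.5. The intervals of the sexes did not overlap at any stage. They cover counting error only, since the reads carry no molecular identifiers and PCR copies of 1 molecule count more than once. In the PGC libraries the share ran from 0 of 67 reads (male E11.5) to 16.3% (female E12.5), without the male being higher at each stage.

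miR-140 was nearly level between the sexes at E11.5 and higher in the male afterwards. miR-140-3p stood at 1061, 985 and 1147 RPM in the female and 1230, 1505 and 4978 RPM in the male, with all male libraries above all female ones. Its difference went from -0.21 to -0.61 and -2.11, and the male was 4.34-fold higher at E13.5. miR-140-5p stood at 1055, 589 and 813 RPM in the female and 969, 981 and 2741 RPM in the male. The 2 arms moved together, with differences of 0.12, -0.73 and -1.75 for the 5p arm. The fitted difference of miR-140-3p was -0.98 ± 0.44 (SE, limma adjusted p = 0.823), and -0.41 without the E13.5 male library.

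miR-455 was higher in the male at E13.5 on both arms, with no steady growth. miR-455-3p stood at 100, 245 and 188 RPM in the female and 504, 295 and 1383 RPM in the male. Every male library was above every female one, yet the differences were -2.28, -0.26 and -2.85. miR-455-5p stood at 1102, 285 and 802 RPM in the female and 721, 540 and 3544 RPM in the male, so that the female was the higher at E11.5 (0.61) and the male at E12.5 (-0.91) and E13.5 (-2.14). At E13.5 the male was 7.36-fold higher for the 3p arm and 4.42-fold for the 5p arm. The fitted difference of miR-455-3p was -1.79 ± 0.55 (SE, limma adjusted p = 0.823), and -1.27 without the E13.5 male library.

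**Figure D2:**
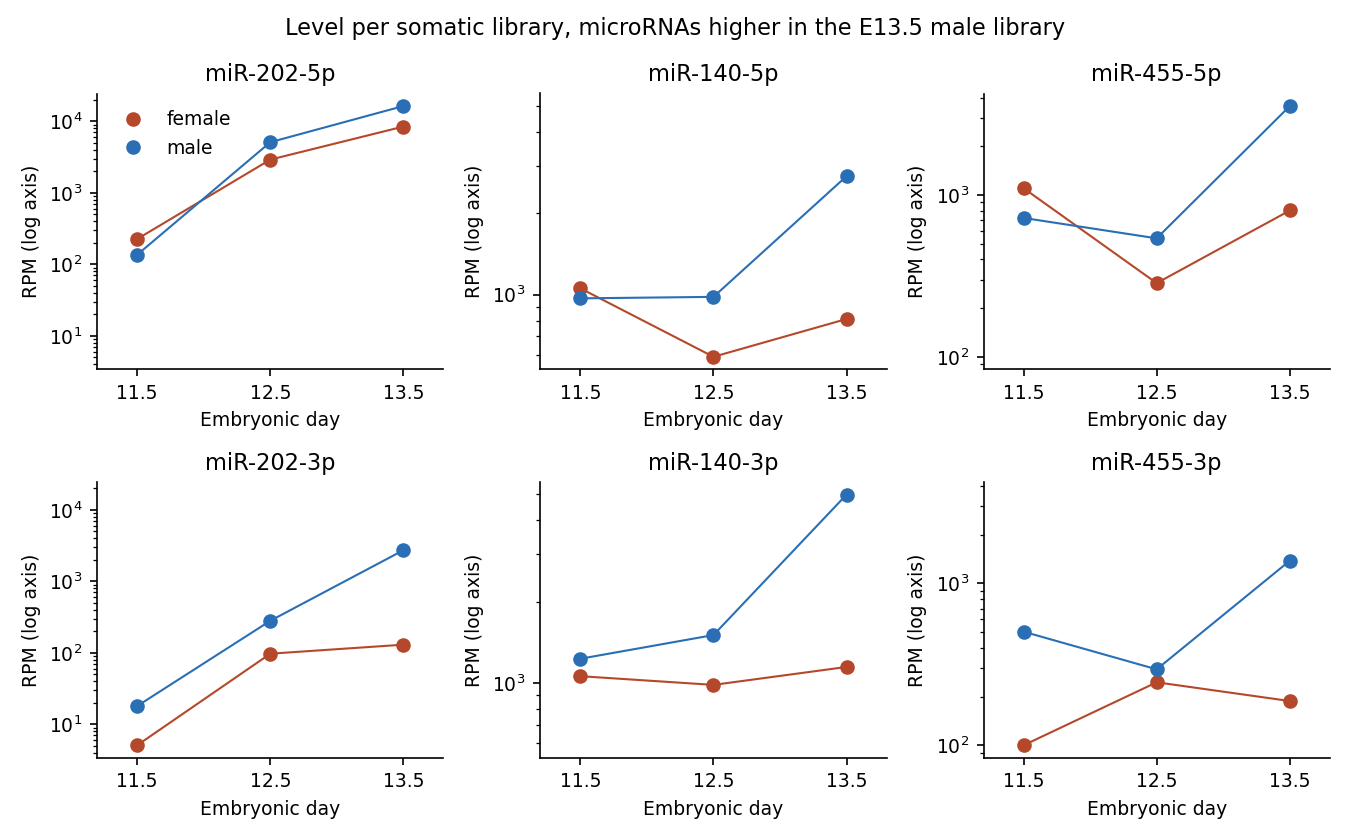
RPM (log axis, common to the 2 panels of a column) of both arms of miR-202, miR-140 and miR-455 against embryonic day, 1 point per SC library. The male library (blue) is the higher in all 6 panels at E13.5, with the widest gap for miR-202-3p (130 against 2719 RPM).

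Other microRNAs higher in the male at E13.5 came from the miR-30 and miR-34 families and from a group with no shared seed. In the miR-30 family, 3 of 8 members at 100 RPM or more were at least 2-fold higher in the male (14.1% over all microRNAs) and 0 in the female, with a median of 0.04 over its 11 tested members. miR-30a-5p, among the most abundant microRNAs of these cells, stood at 18590, 3842 and 10242 RPM in the female and 11372, 4313 and 49618 RPM in the male. miR-30e-5p stood at 20321, 3099 and 8110 RPM in the female and 12205, 2763 and 36446 RPM in the male. Both were the higher in the female at E11.5, near level at E12.5 and 4.84-fold and 4.49-fold higher in the male at E13.5, and without the E13.5 male library the fitted difference of miR-30a-5p was 0.27 instead of -0.58. Both members of the miR-34 and miR-449 list at 100 RPM or more were over 2-fold higher in the male. miR-34c-5p, a p53 target abundant in the later testis, stood at 775, 300 and 709 RPM in the female and 504, 290 and 2603 RPM in the male. It was 3.67-fold higher in the male at E13.5, and its sign at E11.5 was the opposite.

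miR-744-5p and miR-320-3p were higher in the male at all 3 stages. miR-744-5p stood at 1968, 1720 and 1371 RPM in the female and 5713, 2694 and 4535 RPM in the male, and the lowest male library was above the highest female one. The fitted difference was -1.30 ± 0.34 (SE, limma unadjusted p = 0.00719, adjusted p = 0.823), and -1.09 without the E13.5 male library. miR-320-3p stood at 509, 825 and 662 RPM in the female and 1158, 974 and 2585 RPM in the male, again without overlap, with a fitted difference of -1.12 ± 0.41 (adjusted p = 0.823) and -0.71 without that library. miR-574-3p did the same at lower levels, 80.3, 117 and 126 RPM in the female and 272, 164 and 359 RPM in the male. For each of these 3 the E12.5 difference was the smallest, so none grew stage by stage.

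On the female side, microRNAs of the Hox clusters were higher at E13.5, where their level fell in the male library. They lie among the Hox genes that pattern the body axis, and of the 7 with 100 RPM or more, 4 were at least 2-fold higher in the female (13.8% over all microRNAs) and 0 in the male, with a median of 1.41 over 9 tested members. At E12.5 the median was 0.09 with 0 of 7 apart, and at E11.5 it was 0.28 with 1 of 6 higher in the male. miR-10a-5p (chr11:96317165-96317274, plus strand, in the Hoxb cluster) stood at 57747, 76903 and 47961 RPM in the female and 47647, 73662 and 6955 RPM in the male. miR-10b-5p (chr2:74726070-74726137, plus strand, in the Hoxd cluster) stood at 72304, 131734 and 99612 RPM in the female and 51974, 131716 and 99773 RPM in the male. At E13.5 miR-10a-5p was thus 6.90-fold higher in the female (exact 95% interval of the log2 ratio 2.75 to 2.82), while miR-10b-5p, with the same seed, was 1.00-fold. The share of miR-10a-5p in the sum of both was 44.4%, 36.9% and 32.5% in the female and 47.8%, 35.9% and 6.52% in the male. The 3p arm of miR-10a, named after its values were seen, fell with it, to 90.5 RPM in the E13.5 male against 440 to 695 RPM in the other 5.

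miR-196a-5p and miR-196b-5p showed the same order with a smaller and a larger gap. miR-196b-5p (chr6:52230081-52230165, minus strand, in the Hoxa cluster) stood at 1304, 1223 and 1201 RPM in the female and 1096, 901 and 120 RPM in the male. Its 3 female libraries lay above all 3 male ones, and the difference grew from 0.25 to 0.44 and 3.27. miR-196a-5p, which has copies in the Hoxb and Hoxc clusters, stood at 2490, 4571 and 2864 RPM in the female and 2397, 3540 and 737 RPM in the male, with differences of 0.05, 0.37 and 1.95. The fitted differences were 1.04 ± 0.53 for miR-10a-5p, 0.79 ± 0.43 for miR-196a-5p and 1.32 ± 0.62 for miR-196b-5p (SE, limma adjusted p = 0.823 each). Without the E13.5 male library they were 0.17, 0.21 and 0.34. In that library miR-10a-5p and miR-196b-5p were below all other 11 libraries of the study, the next lowest being 6.85-fold and 2.63-fold higher.

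Both miR-7 members, known from endocrine and neural cells, were higher in the female at every stage, although with the GC trend removed the E11.5 differences were 0.03 for miR-7a-5p and -0.05 for miR-7b-5p. miR-7a-5p stood at 10509, 10985 and 8293 RPM in the female and 6992, 6779 and 4791 RPM in the male, and no male library reached a female one. Its difference was 0.59, 0.70 and 0.79, with a fitted value of 0.69 ± 0.25 (SE, limma unadjusted p = 0.0319, adjusted p = 0.823) and 0.64 without the E13.5 male library. miR-7b-5p stood at 621, 1272 and 191 RPM in the female and 417 and 742 RPM in the male at E11.5 and E12.5, and it was at 0 in the male at E13.5. At E13.5 the female was at least 39.6-fold higher than 5 reads of the male library would give, and at E11.5 and E12.5 the differences were 0.57 and 0.77. The fitted difference was 2.21 ± 0.92 (SE, adjusted p = 0.823), and 0.67 without the E13.5 male library.

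miR-27a-5p had one of the widest gaps at E13.5, and the other arm of its hairpin did not share it. It stood at 687, 650 and 1198 RPM in the female and 1032, 743 and 29.8 RPM in the male, so that the male was the higher until E12.5 and the female 40.1-fold higher at E13.5 (2029 reads against 31; exact 95% interval of the log2 ratio 4.82 to 5.89). miR-27a-3p, from the same hairpin at chr8:84208672-84208758, stood at 823, 610 and 966 RPM in the female and 815, 649 and 828 RPM in the male. The 3p arm was thus 1.17-fold apart at E13.5. The 5p arm held 45.5 to 55.9% of the reads of both arms in the other 5 SC libraries and 3.48% in the E13.5 male (exact 95% interval 2.38 to 4.90%). Without that library the fitted difference of miR-27a-5p was -0.39 instead of 1.44.

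**Figure D3:**
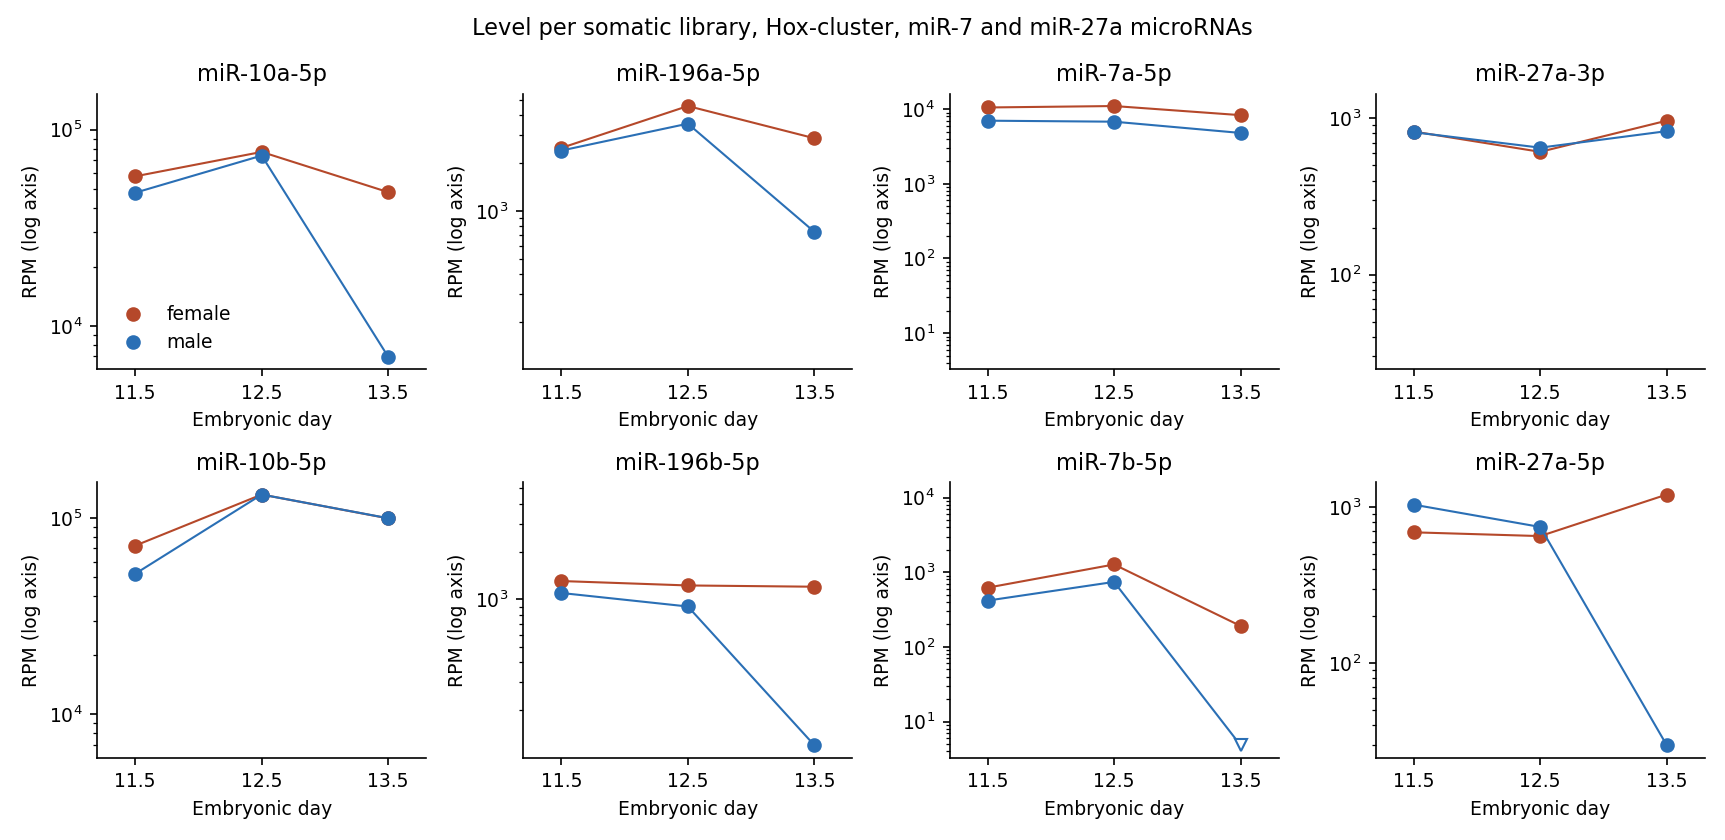
RPM (log axis, common to the 2 panels of a column) of Hox-cluster, miR-7 and miR-27a microRNAs against embryonic day, 1 point per SC library. The open triangle marks a library at 0, drawn at the level of 5 reads; the male (blue) falls at E13.5 for miR-10a-5p, both miR-196 members, miR-7b-5p and miR-27a-5p, and not for miR-10b-5p or miR-27a-3p.

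The miR-200 family, which keeps cells epithelial by holding down Zeb factors, was higher in the female at E13.5 and not before. All 4 members at 100 RPM or more were at least 2-fold higher in the female there (13.8% over all microRNAs), with a median of 1.88 over 6 tested members. At E11.5, 0 of 4 were at least 2-fold higher in the female and 1 in the male (18.8% over all microRNAs). The median there was -0.54, with 5 of the 6 tested members higher in the male. At E12.5, 0 of 4 were apart (median 0.04). miR-429-3p stood at 674, 608 and 785 RPM in the female and 736, 583 and 88.6 RPM in the male. miR-200b-3p stood at 2214, 2301 and 1903 RPM in the female and 3994, 2654 and 765 RPM in the male. Both had the male higher at E11.5 and the female 8.87-fold and 2.49-fold higher at E13.5. miR-375-3p, a microRNA of endocrine and epithelial cells, went the same way, with 379, 469 and 268 RPM in the female and 1158, 490 and 28.9 RPM in the male.

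The lists of other cell types moved with sex at E11.5 and E13.5. The endothelial microRNA miR-126a-3p stood at 34461, 26585 and 32727 RPM in the female and 27896, 30917 and 15410 RPM in the male, and both arms of miR-126a were over 2-fold higher in the female at E13.5 (13.8% over all microRNAs). The erythroid list summed to 1206, 475 and 2462 RPM in the female and 2091, 512 and 454 RPM in the male, and the leukocyte list to 284, 114 and 150 RPM and to 334, 97.1 and 22.1 RPM. miR-122-5p, the main liver microRNA, stood at 653, 65.7 and 842 RPM in the female and at 3023, 15.2 and 0 RPM in the male. At E13.5 the male library was thus the lowest for blood, vessel and liver microRNAs, and at E12.5 all these lists were near level or low in both sexes. Their part in the sex differences was not tested.

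Germ cell, muscle, neural and kidney lists differed in other ways. The miR-290 cluster, typical of germ and pluripotent cells, summed to 336, 421 and 3659 RPM in the female and 244, 619 and 6036 RPM in the male, so that at E13.5 the male sum was higher. There 1 of 8 members at 100 RPM or more was at least 2-fold higher in the male, near the share over all microRNAs (14.1%). The muscle list summed to 1503, 456 and 251 RPM in the female and 679, 231 and 131 RPM in the male. Its member miR-206-3p, the myogenic microRNA, stood at 182, 137 and 13.6 RPM in the female and 45.8, 10.1 and 0 RPM in the male, and its fitted difference of 2.33 ± 0.44 (SE) had the lowest limma p of all (unadjusted p = 0.00146, adjusted p = 0.673). The neural list summed to 4415, 1429 and 1000 RPM in the female and 1742, 1440 and 1191 RPM in the male, with miR-9-5p at 3026 RPM in the E11.5 female against 245 RPM in the male. The kidney and mesonephros list lay between 630 and 1014 RPM in all 6 libraries. The part of these lists in the results was not tested.

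MicroRNAs of the X chromosome, of which XX cells carry 2 copies, did not stand out as higher in the female. The median difference of the 61 tested X-linked microRNAs was 0.00, 0.00 and 0.14 at the 3 stages, against -0.01, -0.03 and 0.12 for the 343 tested microRNAs placed elsewhere. At E13.5, 5 of 39 X-linked microRNAs at 100 RPM or more were at least 2-fold higher in the female and 10 in the male, where all microRNAs gave 13.8% and 14.1%. Within them the Fx-mir cluster, expressed in testis and germ cells, reached 100 RPM only at E13.5, where 1 of 12 was higher in the female and 5 in the male. miR-741-3p of that cluster stood at 0, 3.35 and 387 RPM in the female and 0, 21.7 and 434 RPM in the male. In the imprinted Dlk1-Dio3 cluster, 8 of 52 were at least 2-fold higher in the female and 5 in the male at E13.5, near the 13.8% and 14.1% of all microRNAs, with a median of 0.18 beside 0.14. let-7, which marks differentiation, had 1 of 10 apart (higher in the male) and a median of 0.37.

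**Figure D4:**
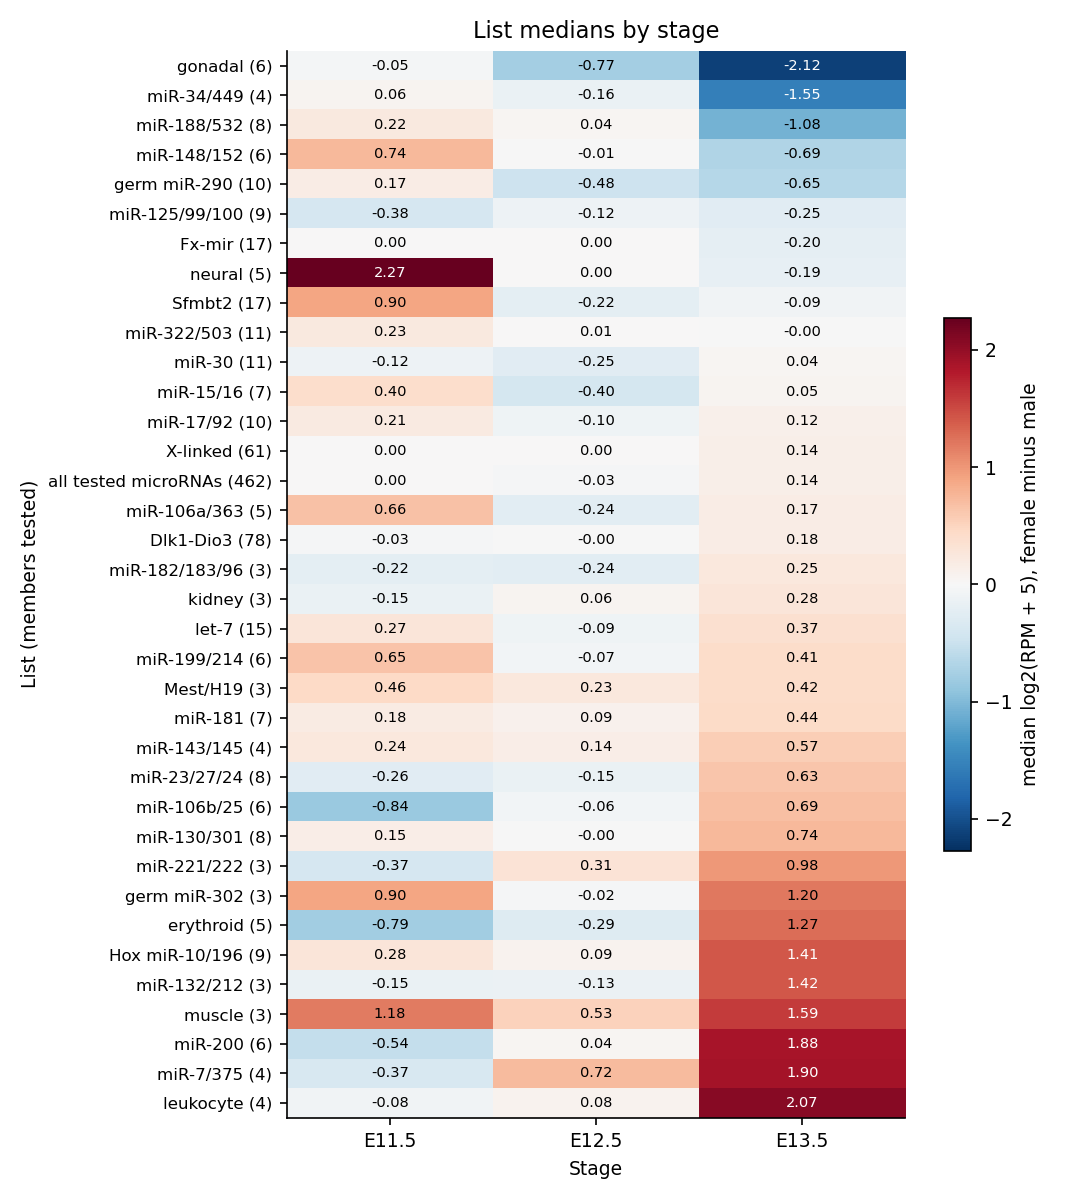
Median difference, log2(RPM + 5), female minus male, of the tested members of each list with at least 3 of them (number in brackets) at each stage, in the order of the E13.5 value; red, higher in the female library; blue, higher in the male. The gonadal list goes from -0.05 to -2.12 and the miR-200 list from -0.54 to 1.88, beside 0.00 and 0.14 for all tested microRNAs.

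The E11.5 and E13.5 differences also followed base composition. Over 239 microRNAs with a sequence and a mean of at least 100 RPM, the difference correlated with GC content at -0.53 at E11.5, 0.23 at E12.5 and -0.34 at E13.5 (Pearson, across microRNAs that share the libraries). At E11.5 the 80 with the lowest GC content had a median of 0.35 and the 91 with the highest one of -0.52, and at E13.5 these were 0.42 and -0.34. Sequences from either end of the range are shown, the first rich in A and U and the other 2 in G and C.
miR-369-3p: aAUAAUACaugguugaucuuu
miR-744-5p: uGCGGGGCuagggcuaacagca
miR-149-5p: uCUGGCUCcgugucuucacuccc
miR-369-3p, with 23.8% GC, stood at 3268, 1909 and 2010 RPM in the female and 1567, 1623 and 686 RPM in the male, and miR-149-5p, with 60.9% GC, at 464, 541 and 295 RPM in the female and 2173, 545 and 569 RPM in the male. The libraries that departed with GC from the mean of all 6 were the E11.5 male (0.43) and the E13.5 female (-0.48), the other 4 lying within 0.10 of 0.

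**Figure D5:**
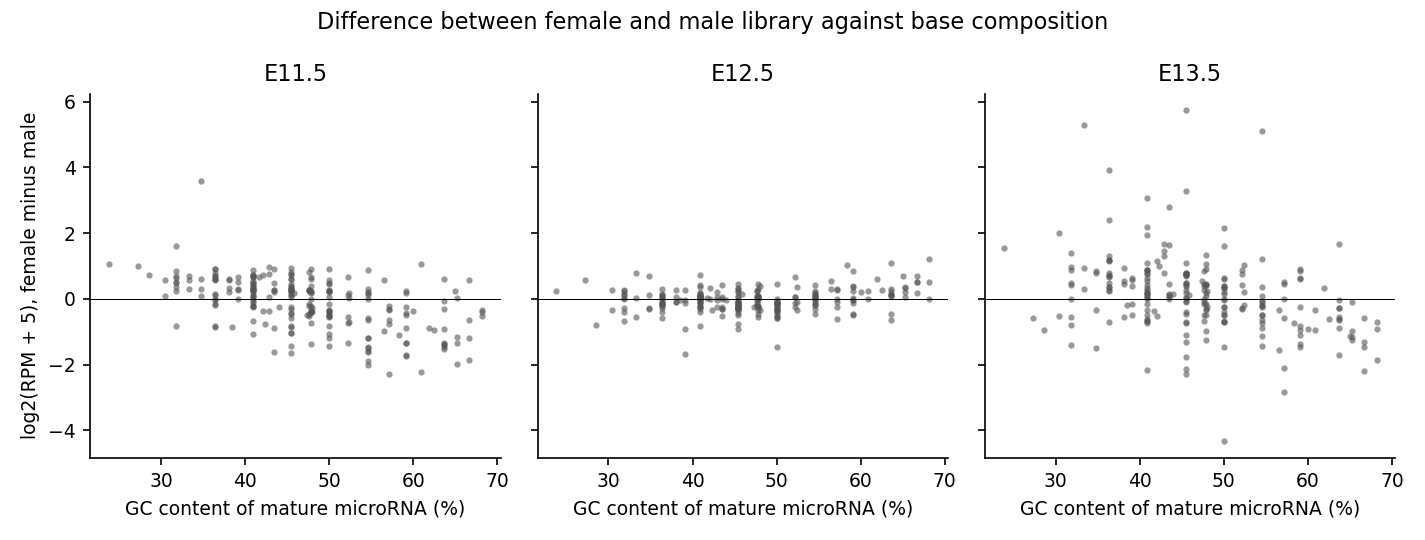
Female minus male difference, log2(RPM + 5), of 239 microRNAs against the GC content of the mature sequence (%), 1 panel per stage. The cloud slopes down at E11.5 (Pearson r -0.53) and E13.5 (-0.34) and is nearly flat at E12.5 (0.23).

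With a linear GC trend taken out of each library, the E13.5 differences of 7 microRNAs described above kept their direction, and those of miR-7a-5p and miR-744-5p shrank. Of the 7, miR-202-3p was then at -4.25, miR-455-3p at -2.43, miR-140-3p at -1.69, miR-10a-5p at 2.57, miR-196b-5p at 3.14, miR-7b-5p at 4.61 and miR-27a-5p at 5.41 at E13.5. miR-7a-5p went from 0.79 to 0.18 at that stage and from 0.59 to 0.03 at E11.5, and miR-744-5p from -1.54 to -0.89 at E11.5. miR-202-5p went from -0.95 to -1.86 at E13.5 and, at E11.5, from 0.71 to -0.10. The E11.5 differences of miR-7b-5p, miR-196a-5p and miR-140-3p also changed sign. This adjustment was added after the trend was seen, and what part GC content had in the results was not tested further.

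On the deposited scale, whose library totals were not equal, the E11.5 counts turned to the female. The female total was 3.10 times the male at E11.5, near it at E12.5 and 0.870 times at E13.5, which moved each log2 ratio by 1.63, 0.13 and -0.20. In reads the female library held 2.89 times the male at E11.5, while the size factors were near each other, 0.820 (female) and 0.879 (male). Division by them thus did not take out the difference in sequencing depth at E11.5. At E11.5, 250 microRNAs were then at least 2-fold higher in the female and 0 in the male, against 10 and 56 at equal totals. At E13.5 they numbered 34 and 64, against 40 and 41. The deposited values of miR-202-3p at E13.5 were 191 in the female and 4598 in the male, those of miR-140-3p 1688 and 8417, those of miR-10a-5p 70547 and 11759 and those of miR-27a-5p 1762 and 50.5. Each of these kept its direction, which a shift of -0.20 could not change for differences of this size. limma on the deposited scale called 6 microRNAs higher in the female, miR-122-5p, miR-669a-5p, miR-1298-5p, miR-7b-5p, miR-219a-2-3p and miR-206-3p, and each of these 6 was at 0 in the E13.5 male library.

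The microRNAs whose level most resembled that of miR-202-5p over the 6 SC libraries were of the let-7 family. Of 323 compared, let-7c-5p had the highest Pearson correlation on the log2(RPM + 5) scale (0.987), followed by let-7b-5p (0.971), let-7f-5p (0.970), let-7a-5p (0.968) and let-7d-5p (0.953). let-7c-5p stood at 2208, 6368 and 11695 RPM in the female and 1829, 6578 and 11165 RPM in the male. It rose with stage as miR-202-5p did, and its sexes lay 1.05-fold apart at E13.5 where those of miR-202-5p lay 1.94-fold apart.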

How the data were processed

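Small RNAs of 12 libraries were sequenced, 6 of them SC. Per the submitters' processing notes, the authors used FastQC, Trim Galore, Bowtie 1.1.2, the GRCm38 build and DESeq; the counting step and annotation were not given in the sources used here. What was deposited is a normalized signal per mature microRNA, reads divided by 1 size factor per library. All values (100%) were 0 or whole multiples, within 1e-06, of a step taken as the lowest value divided by 5, from which reads were recovered. Each column was rescaled to RPM of its own sum. R 4.3.3 and limma 3.58.1 (empirical Bayes with trend) were fitted on log2(RPM + 5) of the 462 microRNAs with a mean of at least 10 RPM. The fit was tried on simulated data with a constant sex difference and the same spread for all microRNAs. That trial does not show how it performs where the difference changes between stages. The planned quasi-likelihood count test was not run, because the deposited unit is not a count. Named microRNAs were the lowest p-values with 1 direction at all stages, the 8 largest differences per stage and direction, those growing at each step, the 4 most abundant of each of 38 lists, and the most abundant overall. Members and lists were chosen with earlier results of these data known. Alternatives were the deposited and TMM scales, pseudocounts, filters, no block, all 12 libraries, libraries left out, voom and GC.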

Additional observations from a re-analysis of the deposited data

Results flagged for a closer look

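In 4 microRNAs the female and male libraries differed at least 2-fold in opposite directions at E11.5 and E13.5, with the male higher first and the female later; with 1 library per sex and stage this reversal was not tested. The E13.5 minus E11.5 change of the log2 difference was 9.61 for miR-122-5p (-2.20 at E11.5, 7.40 at E13.5, where the male was at 0), 4.61 for miR-375-3p (-1.60 and 3.01), 3.26 for miR-200c-3p (-1.62 and 1.64) and 3.20 for miR-205-5p (1.20 at E13.5). miR-205-5p, an epithelial microRNA, stood at 399, 314 and 474 RPM in the female and 1616, 285 and 204 RPM in the male.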

How the results depend on the processing

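With another pseudocount, filter or scaling by trimmed means (TMM), all 12 libraries, voom, or the GC trend removed, 0 microRNAs were called for sex. The deposited scale called 6 higher in the female. For the change per day the deposited scale called 2 toward the female and 7 toward the male, and the TMM scale and no filter 1 each toward the female, miR-122-5p. Leaving out 1 library, which takes its stage partner out of the estimate, called 0 to 0 in either direction (5 to 42 at an unadjusted p under 0.05; lowest adjusted p 0.0701); the change per day was not refitted, having no residual degrees of freedom left. Counts at least 2-fold apart moved most with the deposited scale: 250 female and 0 male at E11.5 (median absolute difference 1.67) and 64 male at E13.5. The TMM scale gave 25 female at E11.5. A level of 500 RPM gave 5 female and 33 male for the E11.5 pair, 1 and 0 for E12.5 and 21 and 25 for E13.5. A pseudocount of 20 RPM gave 2 female at E12.5. With the GC trend removed, of the 259 microRNAs with a sequence, the E11.5 pair gave 6 female and 34 male, against 5 and 48 of these before. Of 223 such microRNAs the E12.5 pair gave 2 female, against 4 before. Of 44 named microRNAs, the fitted sign changed in 12 without either E13.5 library, 4 without either E11.5 library, 1 without either E12.5 library, 6 on the deposited and 1 on the TMM scale and 3 of 36 with the GC trend removed. voom and GC were added after the data were seen. No paired analysis by replicate number was possible because each group has 1 library; the stage is the block, and without it 0 were called (10 at an unadjusted p under 0.05). Levels near 5 reads, such as miR-202-3p at E11.5, show no small difference.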
